A study of Mus musculus with 9 samples.

Results

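Metallothioneins are small cysteine-rich proteins that bind zinc and copper, and zinc transporters carry zinc across membranes. The data on 6 genes of this system, namely Mt1, Mt2, Mtf1, Slc30a1, Slc39a10 and Slc39a4, are described here in 4T1 cells, a mouse mammary carcinoma line. These genes were chosen by name, as a short list of metallothionein and zinc transport genes, from the 24421 genes of one table of RNA-seq read counts. The list was drawn up with earlier results of these data known. Of the list, 6 of 6 passed the filter on low counts that 12575 genes passed. The table holds 9 libraries of poly(A) RNA in 3 conditions with 3 libraries each. Cells were grown for 5 days as 3D cultures without added palmitate, as 3D cultures with 75 µM palmitate, or as 2D cultures with 75 µM palmitate. According to the paper, fatty acids were bound to albumin and given in addition to serum. Cultures without them received albumin and ethanol. Below, "without palmitate" means without added palmitate. Palmitate is a saturated long-chain fatty acid, and the study asked how cancer cells use it when they grow in 3D. Cultures in 2D without palmitate were not analysed here, and a response to palmitate in 2D could therefore not be measured. All libraries come from one cell line, and the labels number the replicates without saying that they are separate cultures, so the p-values measure only the spread between these libraries.

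Total counts per library ranged from 6595514 to 31177756, and the smallest library was replicate 3 of 3D with palmitate. Rn45s, a ribosomal RNA precursor, took 1.77% to 5.38% of the counts. All 8 markers of mammary epithelium were measured, with a summed level of 5115 to 5408 CPM in 3D with palmitate and 4156 to 4496 in 2D. CPM are counts scaled by the library size after the TMM adjustment described below. Not all of these markers moved with the sum. Epcam (log2 fold change 1.43), Krt8, Krt18, Krt19 and Cldn7 were higher in 3D, while Krt7 (-0.51) and Cldn4 (-0.82) were lower. Cd3e and Adgre1, markers of T cells and macrophages, were at 0 in every library, and Ptprc and the markers of endothelium and adipocytes did not exceed 11 counts. Cd68, a macrophage marker also found in other cells, had 51 to 758 counts and was lower in 3D than in 2D with palmitate (log2 fold change -1.39), and the summed level of the immune markers was 8.42 to 11.4 CPM in 3D with palmitate and 24.4 to 27.8 in 2D. The part of such cells in the differences below was not tested. Of the fibroblast markers, Lum was at 0, Dcn had at most 1 count and Pdgfra had 357 to 2491. Pdgfra was higher in 3D than in 2D with palmitate (log2 fold change 1.69). The summed level of the fibroblast markers was 91.7 to 110 CPM in 3D with palmitate and 29.6 to 31.2 in 2D. The source of this difference was not tested. In bulk RNA, fewer cells of a type and less RNA per cell cannot be told apart.

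Cells keep free zinc very low. When it rises, the transcription factor MTF-1, the product of Mtf1, binds metal response elements in promoters and switches on Mt1, Mt2 and Slc30a1. Slc30a1 encodes ZnT1, which exports zinc across the plasma membrane, while Slc39a10 (ZIP10) and Slc39a4 (ZIP4) bring zinc into the cytosol, and MTF-1 is known to hold Slc39a10 down. Metallothioneins buffer zinc and also respond to oxidants and to glucocorticoids.

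The promoters of Mt1, Mt2 and Slc30a1 are printed because these genes are textbook targets of MTF-1 and their windows hold its motif. Each window runs from 250 bases before to 50 bases after a RefSeq start site of the mouse build GRCm38.p6, written 5′ to 3′ on the strand of the gene. The windows lie at chr8:94178839-94179138 for Mt1, chr8:94172368-94172667 for Mt2 and chr1:191906531-191906830 for Slc30a1, each on the plus strand. Capitals mark matches to the core of the metal response element, TGCACNC or TGCGCNC, on either strand.
Mt1: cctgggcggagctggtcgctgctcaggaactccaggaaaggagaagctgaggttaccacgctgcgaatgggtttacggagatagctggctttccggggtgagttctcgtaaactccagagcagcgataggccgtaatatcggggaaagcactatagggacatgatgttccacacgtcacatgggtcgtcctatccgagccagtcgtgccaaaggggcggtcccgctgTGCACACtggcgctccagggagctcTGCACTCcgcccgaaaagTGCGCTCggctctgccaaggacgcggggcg
Mt2: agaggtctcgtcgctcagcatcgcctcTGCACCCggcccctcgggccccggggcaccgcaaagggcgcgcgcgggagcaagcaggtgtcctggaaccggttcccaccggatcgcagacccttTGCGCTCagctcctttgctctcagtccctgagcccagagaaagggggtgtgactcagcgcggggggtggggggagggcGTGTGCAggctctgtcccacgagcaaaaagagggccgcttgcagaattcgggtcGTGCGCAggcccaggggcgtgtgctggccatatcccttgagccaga
Slc30a1: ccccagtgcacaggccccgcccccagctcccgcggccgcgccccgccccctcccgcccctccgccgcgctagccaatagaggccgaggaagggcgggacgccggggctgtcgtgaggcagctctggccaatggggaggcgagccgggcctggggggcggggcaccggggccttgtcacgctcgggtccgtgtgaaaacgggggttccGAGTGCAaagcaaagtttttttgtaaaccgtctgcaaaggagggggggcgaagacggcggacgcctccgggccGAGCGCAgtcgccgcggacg
The Mt1 window held 3 matches, the Mt2 window 4 and the Slc30a1 window 2, and none of these matches overlapped another. These counts hold for 1 start site per gene. Relative to it, the GENCODE annotation has starts at -7, 122 and 152 bases for Mt1 and at 46 and 242 bases for Mt2. GENCODE thus has no Mt2 start at the RefSeq site used for the window. The motif was not particular to these genes: the windows of the exporters Slc30a4 and Slc30a10 held 3 matches each and that of Slc30a2 held 2. Of 32851 promoter windows of the same length, 25.7% held at least 1 match, 7.11% at least 2, 1.97% at least 3 and 0.517% at least 4. The Mtf1 window and both Slc39a10 windows held 0 matches, which says only that these letters are not in these windows. The Slc39a4 promoter was not analysed here. The antioxidant response element TGACNNNGC matched once in Mt2 and once in Slc30a1 and in 12.4% of all windows. The core of the hypoxia response element, ACGTG, matched once in Mt1 and in 19.6% of all windows. A match is a description of the sequence and not a measured binding site.

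**Figure D1:**
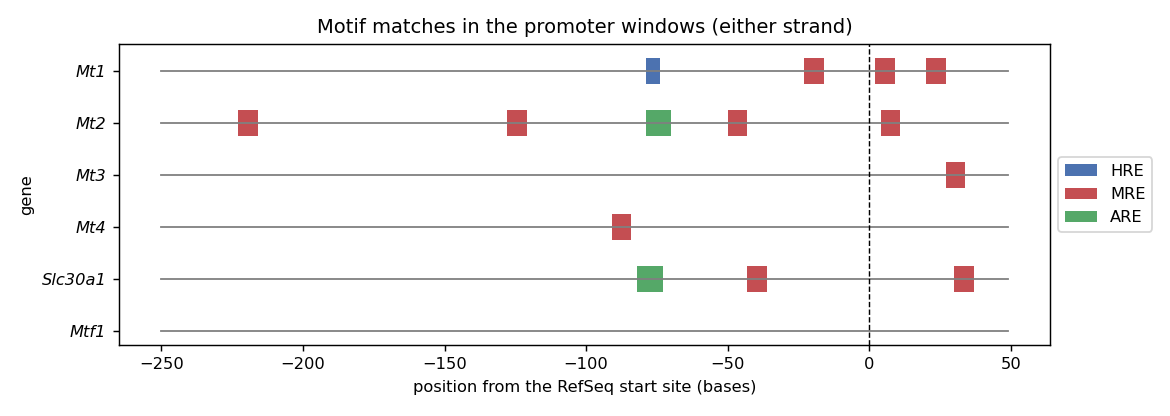
Each line is a promoter window and the horizontal axis gives the distance in bases from the RefSeq start site, marked by a dashed line. Red bars are metal response element cores, green bars antioxidant response elements and blue bars hypoxia response element cores on either strand; Mt2 holds 4 red bars, Mt1 3, Slc30a1 2, Mt3 and Mt4 1 each and Mtf1 none.

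In the GRCm38 annotation (GENCODE vM21), Mt1 spans chr8:94179082-94180327 and Mt2 chr8:94172664-94173568, both on the plus strand and next to Mt3 and Mt4. Their principal transcripts are short, with 549 bases for Mt1 and 511 for Mt2. Mtf1 lies at chr4:124802104-124849800 with a transcript of 7631 bases, Slc30a1 at chr1:191906767-191913247 with 5244 bases, Slc39a10 at chr1:46807544-46892852 on the minus strand with 5498 bases, and Slc39a4 at chr15:76612383-76617384 on the minus strand with 2750 bases. Exons of Mtf1 share 721 bases with 1110065P20Rik on the opposite strand, and those of Slc30a1 share 468 bases with 1700034H15Rik. The overlapping genes had 12 to 168 and 3 to 18 counts per library, against 267 to 1041 for Mtf1 and 166 to 888 for Slc30a1. Exons of Mt2 share 432 bases with the antisense gene Gm45774. The strand setting of the counting is not given in the sources used here.

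Among these genes the metallothioneins were by far the most abundant transcripts. On the scale of CPM per kilobase of transcript, the mean level of Mt2 was 261 ± 41.6 (SD, n = 3) in 3D without palmitate, 345 ± 34.2 in 3D with palmitate and 331 ± 26.5 in 2D with palmitate. Mt1 came next with 211 ± 30.9, 275 ± 51.7 and 260 ± 17.1. The ranges of Mt2 and Mt1 overlapped in both 3D conditions and did not overlap in 2D. Below the metallothioneins, Slc39a4 and Slc39a10 stood between 9.01 and 11.7 in all 3 conditions, and their ranges overlapped in each. Slc30a1 and Mtf1 were lowest. Mtf1 exceeded Slc30a1 without overlap in 3D without palmitate, with means of 4.82 and 4.15. The 2 genes overlapped in 3D with palmitate, at 5.04 and 4.63, and stood in the opposite order without overlap in 2D, at 3.44 and 5.00. The other metallothioneins were nearly absent. Mt3, the form known from brain, had 1 to 12 counts per library. Mt4, the form of stratified epithelia, had 0 counts in all 9 libraries, which allows a level of up to 0.0179 CPM over the 167367204 counts summed, for counting error only.

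**Figure D2:**
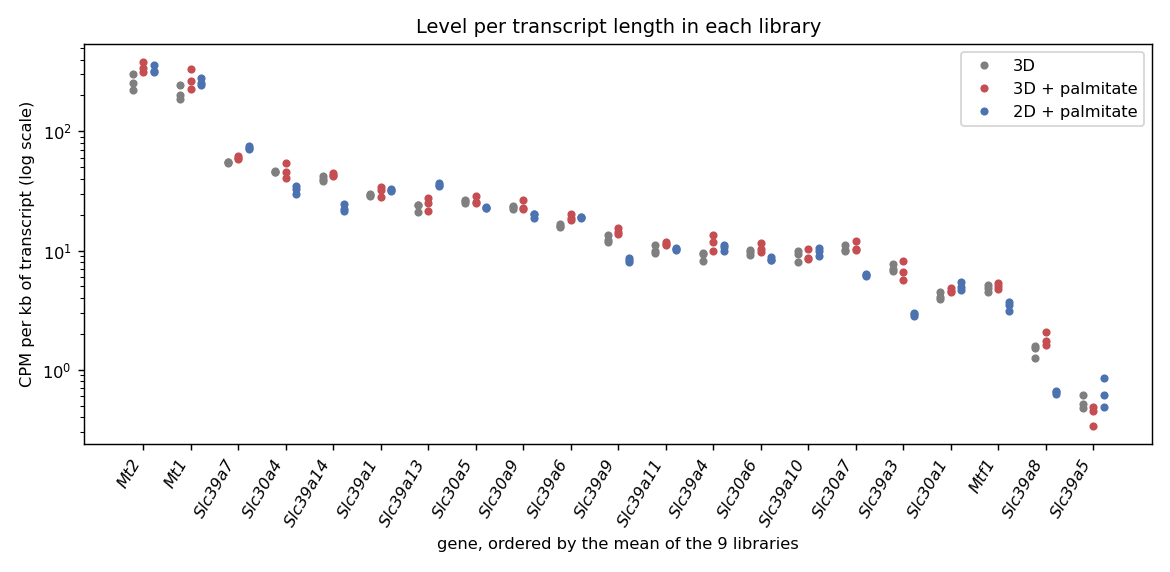
The level in each library is shown in CPM per kilobase of transcript on a log axis for the 21 metallothionein, Mtf1 and zinc transporter genes that passed the filter, with 3 points for each condition. Mt2 and Mt1 stand above 180 in every library, while every other gene stays below 80.

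The first question is whether these genes differed between 3D and 2D growth with palmitate present, and the second is whether palmitate changed them in 3D. Levels within a gene are given below as CPM. All CPM values, above and below, are after TMM scaling, which adjusts library sizes so that most genes are centred. Differences are log2 fold changes from edgeR's quasi-likelihood fit to all 9 libraries. A gene is called where the adjusted p-value (Benjamini-Hochberg over the 12575 genes tested) is under 0.05. Both comparisons use the same 3 libraries of 3D with palmitate, so they are not independent of each other.

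Mtf1 was the only one of the 6 genes called between 3D and 2D. Its level was 38.3, 36.1 and 40.9 CPM in the 3D libraries with palmitate and 23.9, 28.1 and 26.6 CPM in the 2D libraries. Every 3D library stood above every 2D library. The log2 fold change of Mtf1 was 0.53 ± 0.0832 (SE), with a 95% interval of 0.35 to 0.71 and an adjusted p of 4.98e-05 in edgeR's quasi-likelihood test. This count of 1 of 6 stands beside a background of 68.3% of all genes called in the comparison, 34.5% higher and 33.9% lower in 3D. At an unadjusted p under 0.05 the count was also 1 of 6, against 70.9% of all genes, and groups did not overlap for 1 of 6, against 69.4%. The call for Mtf1 was lost, at a log2 fold change of 0.15 and an adjusted p of 0.0567 in edgeR, once the dependence of counts on the GC content and length of transcripts was removed from every library, while it held in the other 18 of 19 alternatives (adjusted p from 2e-07 to 0.0567 over all 19).

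The metallothioneins were not called between 3D and 2D with palmitate. Mt1 measured 181, 146 and 125 CPM in 3D and 140, 135 and 153 CPM in 2D. The 2D values fall inside the range of the 3D values. The difference for Mt1 was 0.09 on the log2 scale, with a 95% interval of -0.16 to 0.35 and an adjusted p of 0.499 in edgeR. Mt2 measured 194, 175 and 160 CPM in 3D and 163, 160 and 185 CPM in 2D, and the groups overlapped. That for Mt2 was 0.06, with an interval of -0.16 to 0.29 and an adjusted p of 0.596 in edgeR. Without replicate 1 of 3D with palmitate, the library with the highest level of both genes, the differences were -0.07 for Mt1 and -0.014 for Mt2. With GC and length trends removed, both were called higher in 3D, at 0.57 for Mt1 (adjusted p = 3.11e-07, edgeR) and 0.56 for Mt2 (adjusted p = 9.92e-07, edgeR).

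The transporters among the 6 genes were not called between 3D and 2D either. Slc30a1, the zinc exporter of the plasma membrane, measured 24.0, 23.5 and 25.4 CPM in 3D with palmitate and 25.7, 28.5 and 24.5 CPM in 2D. Its log2 fold change was -0.12, with an interval of -0.31 to 0.06 and an adjusted p of 0.212 in edgeR. The importer Slc39a10 measured 46.3, 47.3 and 57.0 CPM in 3D and 54.5, 58.1 and 49.8 CPM in 2D. The 3D replicate 3 stood among the 2D libraries, and the other two 3D libraries stood below all of them. Slc39a10 had a log2 fold change of -0.13, with an interval of -0.34 to 0.08 and an adjusted p of 0.241. Slc39a4, the importer best known for zinc uptake in the intestine, measured 37.2, 32.5 and 27.1 CPM in 3D and 27.5, 30.7 and 29.6 CPM in 2D. The 3D libraries enclosed the 2D libraries. Slc39a4 had a log2 fold change of 0.17, with an interval of -0.05 to 0.39 and an adjusted p of 0.151. Without replicate 3 of 3D with palmitate, Slc39a10 was called at -0.21 (adjusted p = 0.0354, edgeR) and Slc39a4 at 0.26 (adjusted p = 0.0143, edgeR). With GC and length trends removed, all 3 were called, Slc30a1 at -0.34 (adjusted p = 0.000245), Slc39a10 at -0.37 (adjusted p = 3.64e-05) and Slc39a4 at 0.21 (adjusted p = 0.0181, edgeR). Without replicate 2 of 2D with palmitate, the difference for Slc30a1 was -0.058.

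**Figure D3:**
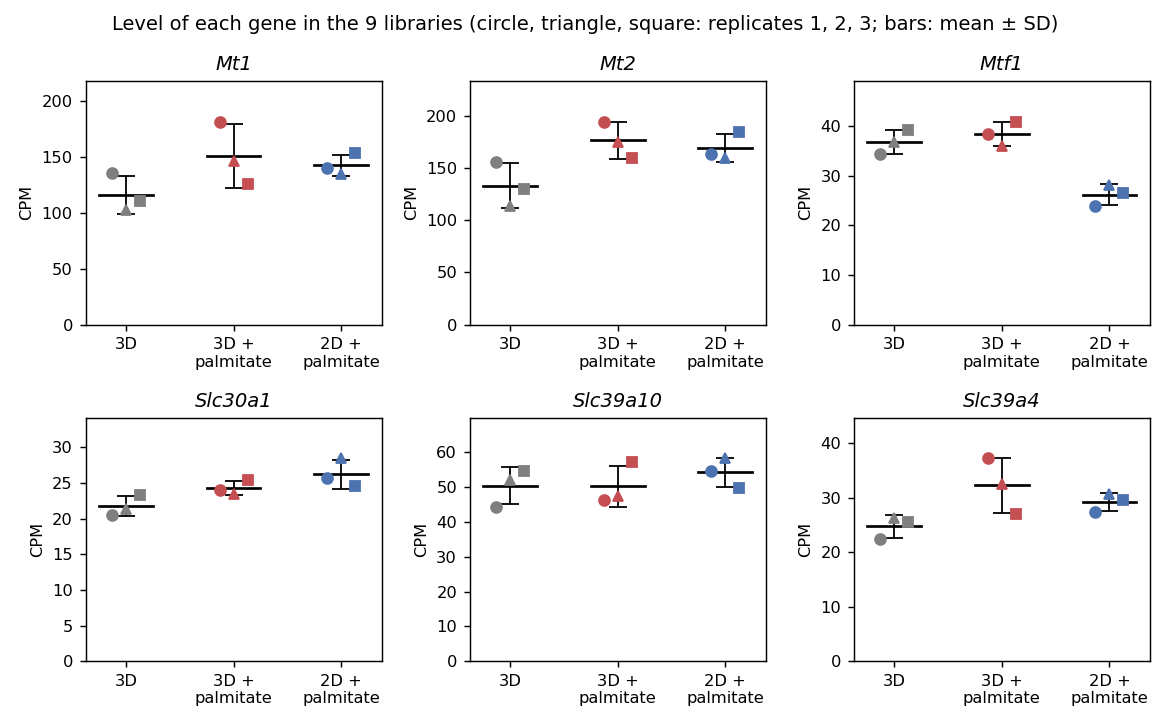
Points give the CPM of each gene in the 9 libraries, with the replicate number as the marker shape, a horizontal bar at the mean and an error bar of 1 SD on either side (n = 3). Mtf1 lies lower in all 3 libraries of 2D with palmitate (23.9 to 28.1 CPM) than in any 3D library (34.4 to 40.9 CPM), while the other 5 genes show overlap between 3D and 2D with palmitate.

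In 3D culture, none of the 6 genes was called between cultures with and without palmitate, while 2.19% of all genes were called, 1.38% higher and 0.811% lower with palmitate. With scaling by library size only, 106 genes were called higher and 121 lower, in place of 173 and 102. Mt1, Mt2 and Slc39a4 had the largest differences of the 6 genes. At an unadjusted p under 0.05 the count was 3 of 6 genes, against 17.3% of all genes. Groups did not overlap for 3 of 6 genes, namely Mt2, Slc39a4 and Slc30a1, against 18.6% of all genes. The 6 genes were listed with earlier results of these data known, and Mt1 and Mt2 had closely alike profiles. These counts are therefore a description and not a test of the list.

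Mt2 measured 156, 114 and 130 CPM in 3D without palmitate and 194, 175 and 160 CPM with it. The lowest library with palmitate stood just above the highest without. Mt2 had a log2 fold change of 0.41 ± 0.105 (SE), with an interval of 0.19 to 0.63 and an adjusted p of 0.058 in edgeR. Mt1 measured 135, 103 and 110 CPM without palmitate and 181, 146 and 125 CPM with it. One library with palmitate, replicate 3, fell below the highest library without it. Mt1 had a log2 fold change of 0.39 ± 0.120 (SE), with an interval of 0.13 to 0.65 and an adjusted p of 0.11 in edgeR. In the same 3 libraries with palmitate, total counts were 27047217, 13451709 and 6595514, and the levels of Mt1, Mt2 and Slc39a4 stood in the order of these totals. Mt1 and Mt2 also followed the totals of the 3D libraries without palmitate, 20785643, 15293752 and 18567021, and did not follow those of the 2D libraries. The part of library size in the spread was not tested.

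Slc39a4 measured 22.4, 26.4 and 25.6 CPM without palmitate and 37.2, 32.5 and 27.1 CPM with it. The groups did not overlap, and replicate 3 with palmitate was close to the group without. Its log2 fold change was 0.42 ± 0.104 (SE), with an interval of 0.20 to 0.64 and an adjusted p of 0.0517 in edgeR. Slc30a1 measured 20.6, 21.4 and 23.4 CPM without palmitate and 24.0, 23.5 and 25.4 CPM with it. The groups were set apart by a narrow gap. Its log2 fold change was 0.15, with an interval of -0.04 to 0.34 and an adjusted p of 0.403.

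Mtf1 and Slc39a10 lay close to 0 on the scale of differences. Mtf1 measured 34.4, 36.8 and 39.2 CPM without palmitate and 38.3, 36.1 and 40.9 CPM with it, and the groups overlapped. Its difference was 0.06 on the log2 scale, with an interval of -0.12 to 0.23 and an adjusted p of 0.78. Slc39a10 measured 44.3, 51.9 and 54.6 CPM without palmitate and 46.3, 47.3 and 57.0 CPM with it, and the groups overlapped. The log2 fold change of Slc39a10 was -0.021, with an interval of -0.23 to 0.19 and an adjusted p of 0.944.

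Whether Mt1, Mt2 and Slc39a4 passed the threshold for palmitate depended on the analysis. Without replicate 3 of 3D with palmitate, Mt1 (0.50, adjusted p = 0.00389), Mt2 (0.47, adjusted p = 0.00463) and Slc39a4 (0.51, adjusted p = 0.00165) were called by edgeR, among 1901 genes in place of 275. Without replicate 1 of 3D without palmitate, Mt2 was called at 0.54 (adjusted p = 0.0266, edgeR). In DESeq2 on all 9 libraries, Mt2 (0.40, adjusted p = 0.0137) and Slc39a4 (0.41, adjusted p = 0.0236) were called. Of 19 alternatives, Mt1 was called in 3, Mt2 in 6 and Slc39a4 in 4, and the direction was higher with palmitate in all 19 for each of these genes. The adjusted p over the alternatives ran from 0.000449 to 0.401 for Mt1, from 0.000122 to 0.281 for Mt2 and from 0.00164 to 0.303 for Slc39a4.

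The rest of the zinc transporter family was read from the full list of 10 Slc30a exporters and 14 Slc39a importers, of which 6 and 12 passed the filter. Slc30a2, Slc30a3, Slc30a8, Slc30a10, Slc39a2 and Slc39a12 were too low to test, with at most 7 counts in a library. Between 3D and 2D with palmitate, 11 of 18 tested transporters were called, 9 higher and 2 lower in 3D, against 68.3%, 34.5% and 33.9% of all genes. The median log2 fold change was 0.19, against 0.008 over all genes.

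Among the exporters, 5 of 6 were called higher in 3D than in 2D, all but Slc30a1, against 34.5% of all genes called higher. Slc30a7 (9020 bases), Slc30a9 (5711), Slc30a4 (5458) and Slc30a1 (5244) have long transcripts, unlike Slc30a5 (3179) and Slc30a6 (2148). Of the 2338 genes with transcripts of 5000 bases or more, 1322 were called higher in 3D. The share of all genes is therefore a low background for the long exporters. Slc30a7, which loads zinc into the Golgi, had a level of 97.1 ± 9.16 CPM (SD, n = 3) in 3D and 56.2 ± 1.15 in 2D, a log2 fold change of 0.78 with an adjusted p of 3.53e-07. Slc30a4, which is needed for zinc in milk, differed by 0.53 and Slc30a6, a Golgi transporter, by 0.29. Slc30a9, a mitochondrial transporter, differed by 0.26 and Slc30a5, the partner of Slc30a6, by 0.20. The calls of Slc30a9 and Slc30a5 were each lost in 1 alternative, Slc30a9 with GC and length trends removed (adjusted p = 0.999) and Slc30a5 with no filter on low counts (adjusted p = 0.0561, edgeR).

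Among the importers, 4 of 12 were called higher and 2 lower in 3D, against 34.5% and 33.9% of all genes. Slc39a8, which carries zinc and manganese, measured 5.70, 6.15 and 7.35 CPM in 3D and 2.32, 2.34 and 2.23 CPM in 2D. Slc39a3 measured 28.3, 22.7 and 19.8 CPM in 3D and 9.76, 10.3 and 10.2 CPM in 2D. For both genes every 3D library was well above every 2D library, with log2 fold changes of 1.43 (adjusted p = 1.72e-06, edgeR) for Slc39a8 and 1.26 (adjusted p = 3.02e-07, edgeR) for Slc39a3. Slc39a14, which carries zinc, iron and manganese, rose by 0.91 (adjusted p = 2.29e-08) and the Golgi transporter Slc39a9 by 0.80 (adjusted p = 1.5e-07). The 2 importers that were lower are known from internal membranes, as is Slc39a9, which was higher. Slc39a13 measured 68.4, 62.4 and 53.0 CPM in 3D and 88.0, 85.1 and 90.4 CPM in 2D, a log2 fold change of -0.50 (adjusted p = 9.78e-05). Slc39a7 had -0.28 (adjusted p = 0.000575).

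With palmitate in 3D, 0 of the 18 tested transporters were called by edgeR, against 2.19% of all genes. At an unadjusted p under 0.05 the count was 5, against 17.3% of all genes, and DESeq2 on all 9 libraries called 2, Slc39a4 and Slc39a6. The log2 fold change was above 0 for 15 of 18, with a median of 0.11, against 0.008 over all genes. After Slc39a4, the smallest p belonged to Slc39a6 (ZIP6), the plasma membrane partner of ZIP10. Slc39a6 measured 60.7, 61.9 and 64.7 CPM without palmitate and 70.6, 73.3 and 78.6 CPM with it. The groups did not overlap, and the log2 fold change was 0.24 with an adjusted p of 0.0628. Slc39a9 (0.20, adjusted p = 0.146), Slc39a11 (0.17, adjusted p = 0.271) and Slc39a7 (0.14, adjusted p = 0.236) made up the 5 genes.

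**Figure D4:**
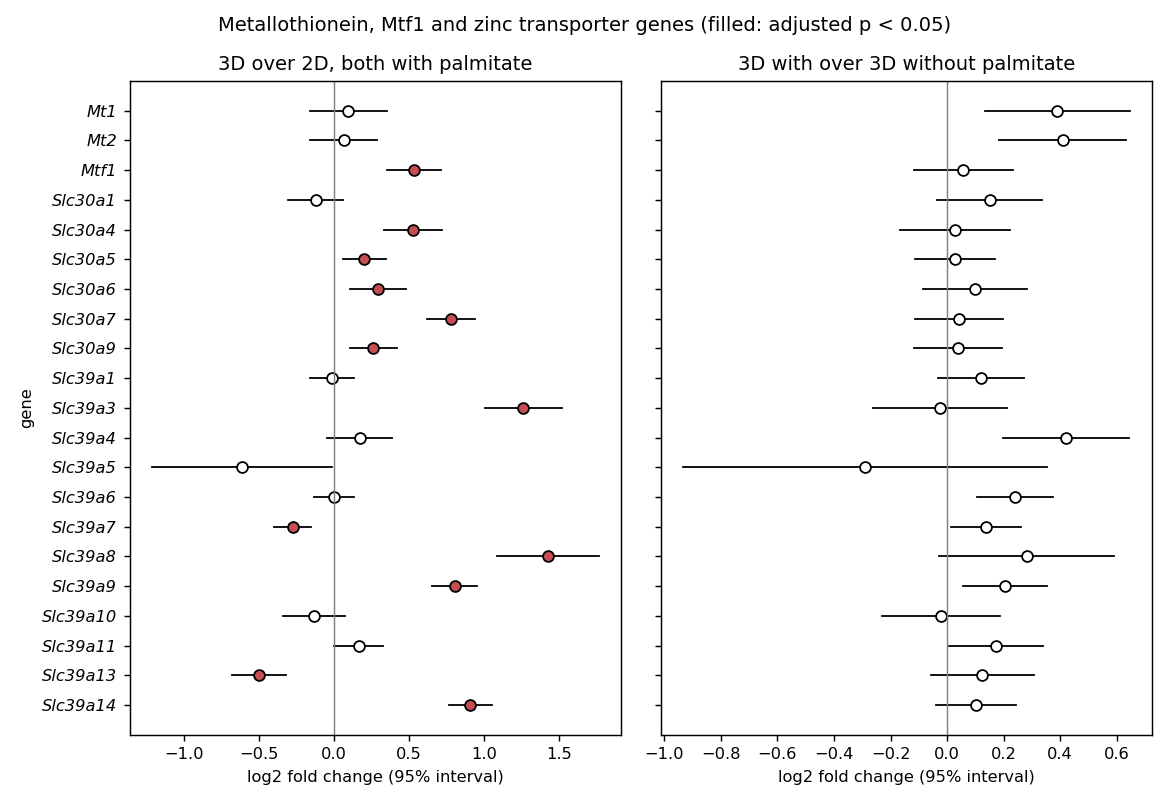
Points give log2 fold changes and lines their 95% intervals for 3D over 2D with palmitate (left) and for palmitate in 3D (right), with called genes filled. On the left 12 genes are filled, Mtf1 and 11 transporters; on the right none is filled, and Mt1, Mt2 and Slc39a4 lie near 0.4.

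Other genes known as targets of MTF-1 were read from a list of 9, which also holds Slc30a1 and Slc39a10. MTF-1 is known to hold Slc39a10 down, so counts and medians over this list mix directions and do not measure MTF-1 activity. In 3D against 2D with palmitate, 5 were called higher and 1 lower, against 34.5% and 33.9% of all genes, with a median log2 fold change of 0.30. Tgm2, a transglutaminase, differed by 1.06 (adjusted p = 4.55e-09) and Slc40a1, the iron exporter ferroportin, by 1.08 (adjusted p = 1.11e-06). Gclc, which catalyses the first step of glutathione synthesis, differed by 0.92 (adjusted p = 6.63e-09), Csrp1 by 0.49 and Ndrg1 by 0.30. Selenoprotein W, listed as Sepw1, was the gene that was lower, at -0.42 (adjusted p = 0.000633). With GC and length trends removed Sepw1 was not called, at -0.035 (adjusted p = 0.611, edgeR). Ndrg1 and Sepw1 were named after their values were seen. With palmitate in 3D, 0 of the 9 were called and 0 had an unadjusted p under 0.05 in edgeR, DESeq2 also called 0, and the median log2 fold change was 0.012.

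The comparison of 3D with 2D moved with transcript length across all genes, which bears on the metallothioneins because their transcripts are among the shortest. The median log2 fold change in 3D against 2D was -0.71 over the 197 genes with transcripts under 600 bases and 0.31 over the 2338 genes with 5000 bases or more. Mt1 at 0.09 and Mt2 at 0.06 stood above the upper quartile of the shortest genes, which was -0.24. Mtf1, at 0.53, lay within the quartiles of 0.04 to 0.79 of the 926 genes with 7000 bases or more. Slc30a1 at -0.12 and Slc39a10 at -0.13 stood below the lower quartile of -0.10 of the 1412 genes with 5000 to 7000 bases. Once this dependence on GC content and length was removed, as given with each gene above, Mt1, Mt2 and Slc39a4 were called higher and Slc30a1 and Slc39a10 lower in 3D. The transporters called were then 10 higher and 5 lower, in place of 9 and 2. Whether the length trend comes from the libraries or from the cells was not tested.

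For palmitate in 3D the trend was smaller and of opposite sign, with a median of 0.105 over the genes under 600 bases and -0.049 over those of 5000 bases or more. With the trend removed, Mt1 (0.33, adjusted p = 0.00511), Mt2 (0.35, adjusted p = 0.00476) and Slc39a4 (0.38, adjusted p = 0.00511) were called higher by edgeR, among 1054 genes in place of 275.

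**Figure D5:**
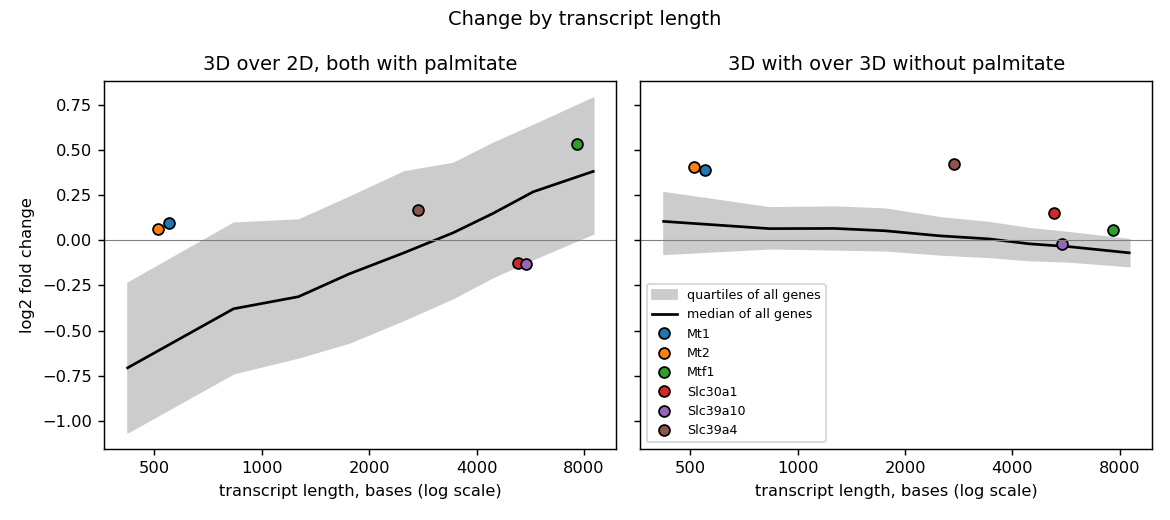
The black line is the median log2 fold change of all tested genes in bins of transcript length (log axis, bases) and the grey band their quartiles, with the 6 genes as coloured points. In 3D over 2D (left) the median climbs from -0.71 for the shortest to 0.38 for the longest genes. Mt1 and Mt2 lie above the band there, Slc39a10 just below it and Slc30a1 just inside its lower edge. For palmitate in 3D (right) the median falls from 0.105 to -0.069. Mt1, Mt2, Slc39a4, Slc30a1 and Mtf1 lie above the band there and Slc39a10 inside it.

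Ratios within a library do not depend on scaling. The ratio of Mt1 to Mt2 counts was 0.867, 0.902 and 0.849 in 3D without palmitate, 0.933, 0.834 and 0.785 in 3D with palmitate, and 0.858, 0.843 and 0.828 in 2D with palmitate. The 3D libraries with palmitate spread over a wider range than those of either other condition. The log2 ratio differed by 0.0095 between 3D and 2D (two-sided exact permutation test, p = 0.9) and by -0.040 with palmitate in 3D (exact p = 0.6), where 3 libraries against 3 allow no p below 0.1. The ratio of Slc30a1 to Slc39a10, exporter to importer, was 0.464, 0.412 and 0.428 in 3D without palmitate, 0.518, 0.496 and 0.446 with it, and 0.472, 0.489 and 0.492 in 2D. Its log2 difference was 0.0039 between 3D and 2D (exact permutation p = 0.9) and 0.16 with palmitate in 3D (exact permutation p = 0.2). Over these 6 tests, which include the share of counts below, no p was at the smallest possible value.

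Mt1 and Mt2 together took 0.0297%, 0.0219% and 0.0239% of all counts in 3D without palmitate, 0.0378%, 0.0314% and 0.0282% with it, and 0.0299%, 0.0295% and 0.0341% in 2D with palmitate. Replicate 1 without palmitate stood above replicate 3 with it. The share was 0.00733 percentage points higher with palmitate in 3D (exact permutation p = 0.2) and 0.00126 points higher in 3D than in 2D (exact permutation p = 0.7).

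The genes with the profile most like each of the 6 across the 9 libraries were ranked by the root mean square difference of mean-centred log2 CPM. Mt1 and Mt2 were nearest to each other of all 12575 genes, at 0.068 log2 units, where the median gene stood 0.348 from Mt1 and 0.344 from Mt2. Lgals3 and Htatip2 followed for Mt1, both at 0.113, and Ifi30 (0.094) and Ech1 (0.098) for Mt2. Mtf1 was nearest to Ccng2 (0.043), Ddi2 (0.058) and Crkl (0.062). Slc30a1 was nearest to Mtpap (0.045), Cdca7l (0.053) and Map3k4 (0.054), and Slc39a10 to Ppp2r5a (0.048), Sbf2 (0.048) and Xk (0.049). Slc39a4 was nearest to Rhob (0.077), Ucp2 (0.079) and Nubp2 (0.094). The 9 libraries share the conditions, so these values only describe like profiles.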

How the data were processed

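Poly(A) RNA libraries of 4T1 cells were grouped by the labels' condition and treatment. The deposited table holds raw counts of reads on each gene, with no normalization by the authors. The submitters' processing notes name FastQC 0.11.9, HISAT2 2.1.0, HTSeq and GRCm38. The annotation release and the strand setting are not given in the sources used here, so overlapping genes may have shared or lost reads.

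Tests used edgeR 4.0.16 in R 4.3.3 (filterByExpr, TMM, quasi-likelihood test on all 9 libraries, Benjamini-Hochberg adjustment, threshold 0.05). Standard errors were taken from the fold change and its F statistic. The fit was tested on simulated data. Of 24421 gene names, 23376 matched GENCODE vM21 by symbol and 669 by synonym, and lengths are those of principal transcripts. Promoter sequences are from RefSeq. Libraries of a condition were not duplicates, with a chi-square of 3.89 to 19.7 per gene between pairs. Alternatives were RLE scaling, library size only, no filter, at least 10 counts in every library, the 2 groups alone, a replicate block, DESeq2 1.42.0 on all libraries or 2 groups, removal of GC and length trends (splines, 4 degrees of freedom), the Rn45s share as a covariate, and each library left out in turn. Named genes were the 6 genes, all metallothioneins and zinc transporters, up to 4 called genes with the smallest p of each other list, and for likeness the 3 nearest genes. The members and lists were chosen with earlier results of these data known.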

Additional observations from a re-analysis of the deposited data

How the results depend on the processing

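Mtf1 kept its call in 3D against 2D in 18 of 19 alternatives and lost it with GC and length trends removed (0.15). That correction also gave calls in 3D against 2D for Mt1 (0.57), Mt2 (0.56), Slc30a1 (-0.34), Slc39a10 (-0.37) and Slc39a4 (0.21), and for palmitate in 3D for Mt1 (0.33), Mt2 (0.35) and Slc39a4 (0.38), with 3 zinc transporters and 1054 genes called, while Slc39a10 changed sign (0.041). With no filter on low counts, palmitate gave calls for Mt1 (0.37), Mt2 (0.39) and Slc39a4 (0.40), 1 transporter and 617 genes. DESeq2 on all libraries called Mt2 (0.40) and Slc39a4 (0.41), with 2 transporters, and on the 2 groups Mt2 (0.40) and 181 genes. The 2 groups alone in edgeR gave 77 genes and the Rn45s covariate 44, with Slc39a10 at 0.024. The causes were not tested.

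Leaving out each library in turn, differences between 3D and 2D ranged from -0.065 to 0.205 for Mt1, -0.014 to 0.13 for Mt2, -0.18 to -0.058 for Slc30a1, -0.21 to -0.075 for Slc39a10 and 0.041 to 0.26 for Slc39a4. Those for palmitate ranged from 0.23 to 0.51 for Mt1, 0.31 to 0.54 for Mt2, 0.29 to 0.51 for Slc39a4 and -0.11 to 0.045 for Slc39a10, with 0 to 3 transporters and 71 to 1901 genes called, the highest without replicate 3 of 3D with palmitate. The log2 ratio of Mt1 to Mt2 ranged from -0.059 to 0.066 between 3D and 2D and from -0.11 to 0.016 with palmitate. The log2 ratio of Slc30a1 to Slc39a10 between 3D and 2D ranged from -0.042 to 0.065, an alternative chosen after seeing the data. The metallothionein share of counts ranged from -0.00138 to 0.0034 percentage points between 3D and 2D.

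With the replicate block, palmitate gave 111 genes in place of 275 and 3D against 2D gave 8323 in place of 8594, and no call of the 6 genes changed. Same-numbered libraries of different conditions had correlations of -0.24 to 0.15 in their deviations from the condition means. For differently numbered libraries the correlations were -0.17 to 0.28. These values showed no pairing by number, but deviations from means of 3 libraries cannot exclude one. With 3 libraries a condition, the 95% intervals were about ± 0.2 log2 units wide for the 6 genes.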

Other observations

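Copper handling genes were read from a list of 16, of which 14 were tested, since metallothioneins also bind copper. The list also holds Mtf1. In 3D against 2D with palmitate, 5 were called higher, Mtf1 among them, and 4 lower, near the 34.5% and 33.9% of all genes. Steap3, a metal reductase, measured 56.3 ± 3.83 CPM (SD, n = 3) in 3D and 28.1 ± 0.510 in 2D, a log2 fold change of 1.01 (adjusted p = 3.32e-08, edgeR). Atp7a, the copper exporting ATPase, measured 63.6 ± 9.89 CPM in 3D and 22.8 ± 3.44 in 2D, a log2 fold change of 1.46 (adjusted p = 1.56e-07). Cox17, the copper chaperone of cytochrome oxidase, was lower at -0.88 (adjusted p = 1.64e-06) and Commd1 at -0.57 (adjusted p = 1.61e-06). With palmitate in 3D, 0 of 14 were called by edgeR or DESeq2, against 2.19% of all genes in edgeR, and 0 had an unadjusted p under 0.05 in edgeR.

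Glucocorticoid receptor targets were listed because metallothioneins respond to glucocorticoids, and 9 of 10 were tested. In 3D against 2D with palmitate, 4 were called higher and 2 lower of 9, against 34.5% and 33.9% of all genes, so that the share called was about that of all genes (68.3%). Errfi1, a feedback inhibitor of the EGF receptor, differed by 1.53 (adjusted p = 3.32e-10), Sgk1 by 0.78 (adjusted p = 1.31e-07) and the receptor gene Nr3c1 by 0.76 (adjusted p = 1.03e-06), while Tsc22d3 was lower at -0.52 (adjusted p = 0.00023). With palmitate in 3D, 2 of 9 were called, both higher, against 1.38% of all genes called higher. The log2 fold change was above 0 for 6 of 9, with a median of 0.108. Tsc22d3 was lower with palmitate and not called, at -0.38 (adjusted p = 0.057, edgeR), and its groups did not overlap. Dusp1, a phosphatase of MAP kinases, measured 15.3 ± 5.23 CPM with palmitate and 7.39 ± 1.10 without, a log2 fold change of 1.15 (adjusted p = 0.00749). Klf9 measured 31.5 ± 2.21 and 23.7 ± 1.14 CPM, a log2 fold change of 0.39 (adjusted p = 0.0231). Over 19 alternatives the adjusted p ran from 5.07e-14 to 0.0574 for Dusp1 and from 0.000972 to 0.139 for Klf9. Dusp1 lost its call without replicate 1 (adjusted p = 0.0574) or replicate 3 (0.0548) of 3D without palmitate and with the Rn45s share as a covariate (0.0545). Klf9 lost its call without any 1 of the 3 libraries of 3D without palmitate (0.0776, 0.105 and 0.0759), without replicate 2 of 3D with palmitate (0.0853), with the 2 groups alone (0.0781), with the replicate block (0.0573) and with the Rn45s covariate (0.139).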
